A study of Mus musculus with 9 samples.

Results

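The 10 guanylate-binding protein genes Gbp2 to Gbp11 were followed through 3 ages of the mouse skin melanocyte lineage. They were taken by symbol from the 49671 genes in the count files, and all 10 were found. RNA-seq was measured in 9 libraries of dermal cells of female C57BL/6 body skin, gated as positive for KIT and negative for CD45. KIT is a receptor of the melanocyte lineage and of mast cells, and CD45 is a marker of immune cells. The groups were melanoblasts, the pigment cell precursors, at postnatal day 0.5 (n = 3), quiescent melanocyte stem cells (McSC) of adult mice at 8 to 10 weeks (n = 4) and quiescent McSC of aged mice at 24 months (n = 2). All mice were wild type, no treatment is labelled, and the hair follicles of the adult and aged skin were resting (telogen). Newborns and adults were bred in house from C57BL/6J mice, whereas the aged mice came from another colony at 21 months, so colony and age cannot be told apart in the aged group. Each library pooled cells of several mice, and p-values therefore cover variation among pools and not among single mice. The family was proposed with earlier results known and counts as selected on its values in adult McSC and melanoblasts.

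Guanylate-binding proteins are large GTPases of the dynamin superfamily whose genes are switched on by interferons, above all by interferon gamma. They assemble on the membranes of vacuoles that hold parasites or bacteria, and on bacteria in the cytosol, and break them open. The released products are sensed by the AIM2 inflammasome and by caspase-11, and some members, Gbp2 and Gbp5 among them, hold to membranes by a lipid added to the end of the protein. In mice the family lies in one cluster on chromosome 3 and another on chromosome 5. In skin, keratinocytes, endothelium and immune cells are known to raise these genes under interferon.

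In GENCODE M21 (mm10), 4 members lay on the plus strand of chromosome 3 in the order Gbp5 (chr3:142493978-142522344), Gbp7 (chr3:142530342-142550149), Gbp3 (chr3:142560026-142573209) and Gbp2 (chr3:142620602-142638008). The other 6 lay on the minus strand of chromosome 5. Gbp8 (chr5:105014150-105139540), Gbp9 (chr5:105077630-105139539) and Gbp4 (chr5:105115767-105139586) overlapped and shared a first-exon stretch of at least 60 bases. Gbp10 (chr5:105215699-105239533), Gbp6 (chr5:105270702-105293698) and Gbp11 (chr5:105323042-105346472) followed. Gbp11 is annotated as a polymorphic pseudogene and the other 9 as protein-coding. Gbp6 and Gbp10 share sequence with each other and with the overlapping gene model Gm43302: 61.6% of the 126-base words in Gbp6 transcripts and 69.2% of those in Gbp10 transcripts also occur in transcripts of another gene. How reads with several matches were counted is not given in the sources used here, so the levels of Gbp6 and Gbp10 are uncertain. For Gbp7 the share was 9.2%, all of it with the pseudogene model Gm43802, which lies inside Gbp7, and for the other 7 members it was at most 2.0%.

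RefSeq promoter windows of 250 bases before to 50 bases after the start (build GRCm38.p6) were at hand for 4 members, all on chromosome 3. They are shown because the 4 genes lie in one cluster and had the same order of ages on the TMM scale used below. A further reason is that each holds a GAAA pair, that is GAAA, any 2 bases and GAAA, a core form of the interferon-stimulated response element. Each stretch below is written 5′ to 3′ on the plus strand, and capitals mark the match, which reads TTTC, 2 bases and TTTC on this strand.
Gbp5 (chr3:142496684-142496798): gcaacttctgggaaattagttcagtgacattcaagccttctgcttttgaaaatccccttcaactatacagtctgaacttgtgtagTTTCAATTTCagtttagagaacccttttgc
Gbp7 (chr3:142530183-142530312): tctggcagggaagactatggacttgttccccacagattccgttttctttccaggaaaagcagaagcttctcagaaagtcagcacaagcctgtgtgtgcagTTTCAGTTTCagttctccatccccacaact
Gbp3 (chr3:142559899-142560025): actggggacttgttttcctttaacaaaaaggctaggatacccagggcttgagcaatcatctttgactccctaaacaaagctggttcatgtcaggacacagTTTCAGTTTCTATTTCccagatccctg
Gbp2 (chr3:142620504-142620619): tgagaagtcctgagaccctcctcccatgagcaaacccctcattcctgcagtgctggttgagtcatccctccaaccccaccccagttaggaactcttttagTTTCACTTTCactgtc

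The match lay at bases -53 to -44 from the RefSeq start of Gbp7, at -59 to -50 in Gbp2 and at -165 to -156 in Gbp5. Gbp3 held 2 overlapping matches, at -45 to -36 and at -39 to -30, so that TTTC occurs 3 times in a row in its capitals. The Gbp2 match lies inside an exon that GENCODE starts upstream of the RefSeq start. The Gbp5 match lies inside the span that GENCODE gives the gene but outside its exons. GENCODE starts Gbp5 at base 142493978, upstream of the RefSeq start at base 142496934. Over both strands, 978 of 32851 RefSeq promoter windows (2.98%) held the GAAA pair in the 250 bases before the start. A second RefSeq start of Gbp3 had no match in its window. A second motif, TTCNNNGAA, the core of the gamma-activated site, was found in Gbp5 (at -245 to -237 and -52 to -44) and in Gbp7 (at -106 to -98 and -87 to -79), and its letters were not in the windows of Gbp3 and Gbp2. It occurred in 2306 of the windows (7.02%) in the 250 bases before the start.

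Total counts were 23688288 to 33710117 in melanoblast libraries, 19956424 to 21572026 in adult McSC libraries and 12594770 to 16362560 in aged McSC libraries. The 10 members together took 545 to 977 counts in melanoblasts, 4779 to 6653 in adult McSC and 2928 to 4311 in aged McSC. Levels are given as CPM (counts per 1000000 counts of the library) scaled by TMM, and 3 counts, the limit that a count of 0 allows, equalled 0.117 to 0.186 CPM on that scale, which covers counting error only. Kit itself was at 2246 to 3077 CPM in melanoblasts, 598.5 to 1607 in adult McSC and 731.3 to 846.9 in aged McSC. Dct, the most abundant melanocyte marker measured, was at 5486 to 11150, 1869 to 4722 and 3494 to 5192 CPM in the same order of ages. Ptprc, the gene of CD45, was at 0.677 to 3.17 CPM in melanoblasts, 4.14 to 7.43 in adult McSC and 6.30 to 7.46 in aged McSC. Kit and Dct were thus high in every library, and Ptprc was low but above 0 in every library. Olfactory and vomeronasal receptor genes, which skin is not known to use, made up 166.4 to 374.4 CPM before scaling in melanoblasts, 762.9 to 1462.8 in adult McSC and 1572.7 to 1691.0 in aged McSC. The 95th percentile of the 1047 receptor genes tested was 0.960 CPM in melanoblasts, 2.24 in adult McSC and 2.68 in aged McSC. Gbp8, Gbp10 and Gbp11 did not exceed it in either McSC group, nor did Gbp5, Gbp8 and Gbp10 in melanoblasts, and the part of such background in the values of these members was not tested.

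Gbp7 and Gbp2 carried most of the family's counts. Gbp7, which aids oxidase assembly in infected mouse macrophages, had 30.8, 30.55 and 12.7 CPM in melanoblasts, 79.3, 88.2, 83.9 and 75.2 CPM in adult McSC, and 62.7 and 71.9 CPM in aged McSC. On the TMM scale the 3 ages did not overlap for Gbp7: melanoblasts were lowest and adult McSC highest. Gbp2, a prenylated member that gathers on Toxoplasma vacuoles in mouse cells, had 7.02, 5.67 and 3.01 CPM in melanoblasts, 67.2, 93.3, 67.2 and 57.8 CPM in adult McSC, and 40.7 and 30.6 CPM in aged McSC. For Gbp2, too, every aged library lay below every adult library and above every melanoblast library.

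Gbp3 and Gbp5, the other chromosome 3 members, had the same order of ages at lower levels. Gbp3, which also gathers on Toxoplasma vacuoles in mouse cells, had 6.84, 5.57 and 2.11 CPM in melanoblasts, 34.6, 26.8, 36.1 and 23.8 CPM in adult McSC, and 11.95 and 17.45 CPM in aged McSC. Gbp5, which promotes NLRP3 inflammasome assembly in mouse macrophages, had 1.31, 0.468 and 0.301 CPM in melanoblasts, 15.7, 8.03, 14.9 and 6.49 CPM in adult McSC, and 4.08 and 2.37 CPM in aged McSC. Its melanoblast values rest on 21, 9 and 6 counts. On the TMM scale all 4 chromosome 3 members thus had adult libraries highest, aged libraries between and melanoblast libraries lowest, with no overlap between ages. For Gbp7 the order of aged and adult McSC depended on the scaling. Its log2 fold change of aged over adult McSC was -0.28, and 0.07 with scaling factors from abundant genes. The share of all genes with this order of 3 ages was not counted. Taken in pairs, every aged library was below every adult library for 12.1% of all genes tested. Every aged library was above every melanoblast library for 40.4%, and every adult library was for 19.5%.

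On chromosome 5 the order of ages was not shared. Gbp6, which restricts bacteria in mouse macrophages, had 3.98, 1.30 and 0.852 CPM in melanoblasts, 21.6, 22.55, 21.7 and 13.8 CPM in adult McSC, and 27.7 and 27.6 CPM in aged McSC. Both aged libraries lay above every adult library for Gbp6, the one member with that order. Gbp4, described in mouse cells as a brake on IRF7, had 1.12, 1.61 and 2.21 CPM in melanoblasts, 14.9, 12.04, 21.4 and 7.86 CPM in adult McSC, and 14.1 and 10.75 CPM in aged McSC. The aged libraries of Gbp4 fell inside the adult range. Gbp9, another member that gathers on Toxoplasma vacuoles in mouse cells, had 1.62, 4.01 and 2.21 CPM in melanoblasts, 13.5, 9.18, 23.5 and 6.61 CPM in adult McSC, and 6.98 and 3.99 CPM in aged McSC. Gbp9 overlapped between aged and adult McSC and between aged McSC and melanoblasts. Gbp4 and Gbp9 were both highest in adult replicate 3 and lowest among adults in replicate 4.

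The 3 remaining members were near the floor set by the receptor genes. Gbp8 had 0.208 to 1.10 CPM in melanoblasts, 1.15 to 2.62 CPM in adult McSC, and 1.29 and 2.14 CPM in aged McSC. Gbp10, which like Gbp6 and Gbp7 restricts bacteria in mouse macrophages, had 0.521 to 0.602 CPM in melanoblasts, 1.07 to 2.57 CPM in adult McSC, and 2.58 and 1.68 CPM in aged McSC. Gbp11 had 0.937 to 2.26 CPM in melanoblasts, 1.03 to 2.49 CPM in adult McSC, and 1.898 and 0.751 CPM in aged McSC. The ages overlapped throughout for Gbp11, whose counts per library were 13 to 60.

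**Figure D1:**
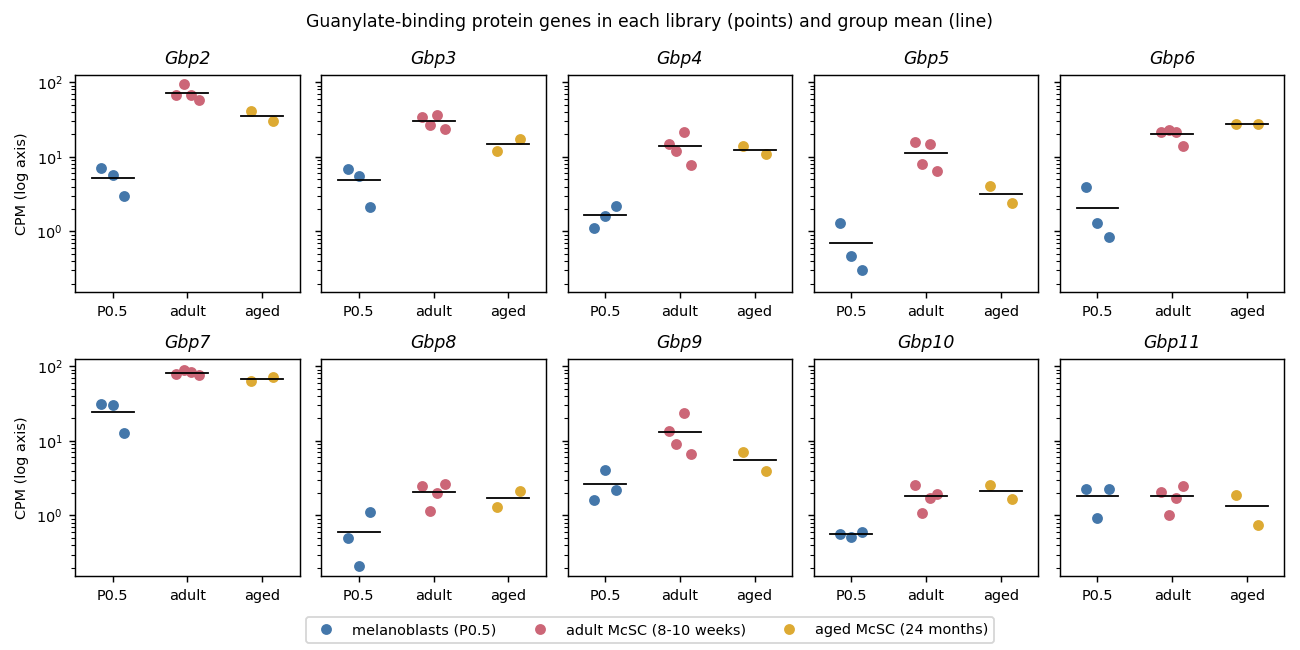
CPM of each member (y axis, log scale, shared by all panels) in melanoblasts, adult McSC and aged McSC (x axis). Points are libraries and lines are group means. Gbp2, Gbp3, Gbp5 and Gbp7 have adult libraries highest and melanoblast libraries lowest, Gbp6 has its aged libraries (27.7 and 27.6 CPM) above its adult ones, and Gbp11 overlaps across ages.

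Because transcripts differ in length, levels were compared between members as CPM per kilobase of exon. In melanoblasts the order began with Gbp7 at 4.39 ± 1.85, Gbp2 at 2.08 ± 0.812 and Gbp3 at 1.48 ± 0.750 CPM per kilobase (SD, n = 3), and the ranges of neighbours in that order overlapped. In adult McSC it began with Gbp2 at 28.4 ± 6.07, Gbp7 at 14.5 ± 1.00, Gbp3 at 9.29 ± 1.84 and Gbp6 at 3.35 ± 0.686 CPM per kilobase (SD, n = 4). Those 4 members did not overlap each other in adult McSC, whereas Gbp6, Gbp9 (2.55 ± 1.44), Gbp4 (1.88 ± 0.761) and Gbp5 (1.70 ± 0.706) overlapped with their neighbours. In aged McSC it began with Gbp2 at 14.2 ± 2.84, Gbp7 at 11.99 ± 1.15, Gbp6 at 4.64 ± 0.0105 and Gbp3 at 4.50 ± 1.19 CPM per kilobase (SD, n = 2), and Gbp2 overlapped Gbp7, as Gbp6 did Gbp3. Gbp5 came seventh among the 10 in adult McSC and last in both other groups. In aged McSC Gbp5, at 0.486 ± 0.182, overlapped with Gbp8, Gbp10 and Gbp11, which were at 0.498 ± 0.174, 0.550 ± 0.166 and 0.492 ± 0.301 CPM per kilobase.

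The first tested comparison was aged against adult McSC, which asks what differs between old and young quiescent stem cells. The log2 fold change was below 0 for 8 of 10 members (5 of 10 with scaling factors from abundant genes), and no member passed the test. The family's summed level was 171.6 ± 3.41 CPM in aged McSC (SD, n = 2) and 247.5 ± 33.6 CPM in adult McSC (SD, n = 4). The 4 chromosome 3 members summed to 120.9 ± 2.01 CPM in aged McSC and 194.6 ± 22.5 CPM in adult McSC, and both aged sums (119.5 and 122.3) lay below the lowest adult sum (163.3). The 6 chromosome 5 members summed to 50.7 ± 5.43 CPM in aged McSC and 52.9 ± 15.6 CPM in adult McSC, and these sums overlapped. In bulk RNA, fewer cells of a type and less RNA per cell cannot be told apart.

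By member, Gbp5 had the lowest log2 fold change of aged over adult McSC, -1.80 ± 0.491 (SE), with an adjusted p of 0.169 in edgeR's quasi-likelihood test (Benjamini-Hochberg over the 31961 genes tested). The log2 fold change was -1.26 ± 0.456 for Gbp9 (adjusted p = 0.357 in edgeR), -1.05 ± 0.349 for Gbp3 (0.297) and -1.0 ± 0.298 for Gbp2 (0.242). For Gbp2 that is 35.7 CPM in aged McSC and 71.4 CPM in adult McSC on average. Those 4 members had an unadjusted p under 0.05. The values were -0.44 ± 0.623 for Gbp11, -0.28 ± 0.287 for Gbp7, -0.27 ± 0.649 for Gbp8 and -0.17 ± 0.355 for Gbp4. Above 0 stood 0.47 ± 0.3598 for Gbp6 and 0.23 ± 0.584 for Gbp10. The adjusted p of these 6 members was between 0.664 and 0.922 in edgeR. Across all genes, 0.0532% were called higher and 0.25% lower in aged McSC, against 0 of 10 members in either direction. Every aged library was below every adult library for 4 members (Gbp2, Gbp3, Gbp5 and Gbp7), as for 12.1% of all genes tested, and above for Gbp6, as for 15.5%. The members' median log2 fold change was -0.36, and that of all genes was 0.08. With scaling factors from abundant genes these medians were -0.04 and 0.42.

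The call for Gbp2, Gbp3 and Gbp5 depended on the fit. Gbp5 passed in DESeq2 (adjusted p = 0.0106), in limma voom (0.0313) and in edgeR without the filter on low counts (0.0103). Gbp2 passed in limma voom (adjusted p = 0.0154) and, at 0.0499, in edgeR without the filter. Gbp3 passed in limma voom (adjusted p = 0.0212). Leaving out melanoblast replicate 3, which is in neither group compared, gave an adjusted p of 0.0339 for Gbp5 and 0.0446 for Gbp2 in edgeR. That fit repeated the filter, the scaling, the shared estimate of spread and the adjustment, over 31799 genes.

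The shares of Gbp2, Gbp5 and Gbp6 in the family's counts did not overlap between aged and adult libraries. Gbp2 gave 23.4% and 18.1% in aged McSC, against 24.5% to 35.4% in adult McSC. For Gbp5 the shares were 2.34% and 1.40% in aged McSC, against 3.05% to 6.18% in adult McSC. The 6 chromosome 5 members together gave 31.3% and 27.7% in aged McSC, against 17.8% to 26.3% in adult McSC. Gbp6 gave 7.11%, 2.56% and 3.12% of the family's counts in melanoblasts, 8.52%, 8.56%, 7.92% and 6.97% in adult McSC, and 15.9% and 16.3% in aged McSC. Within a library, ratios do not depend on scaling. The ratio of Gbp6 to Gbp2 counts was 0.679 and 0.900 in aged McSC, against 0.322, 0.242, 0.323 and 0.240 in adult McSC. The ratio of Gbp6 to Gbp7 counts was 0.441 and 0.383 in aged McSC, against 0.273, 0.256, 0.259 and 0.184 in adult McSC. The ratio of Gbp4 to Gbp9, neighbours on chromosome 5, was 2.02 and 2.70 in aged McSC, against 1.10, 1.31, 0.912 and 1.19 in adult McSC. The ratio of Gbp5 to Gbp7, neighbours on chromosome 3, was 0.0650 and 0.0330 in aged McSC, against 0.198, 0.0910, 0.177 and 0.0862 in adult McSC. Aged and adult libraries did not overlap for these 4 ratios. How many of the other shares and ratios of members also did not overlap was not counted. By CPM of single genes, every aged library was above every adult library for 15.5% of all genes tested and below for 12.1%. The shares and ratios were chosen after the values had been seen and are given with no test, and those with Gbp6, the chromosome 5 share included, carry the uncertainty of its shared sequence.

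**Figure D2:**
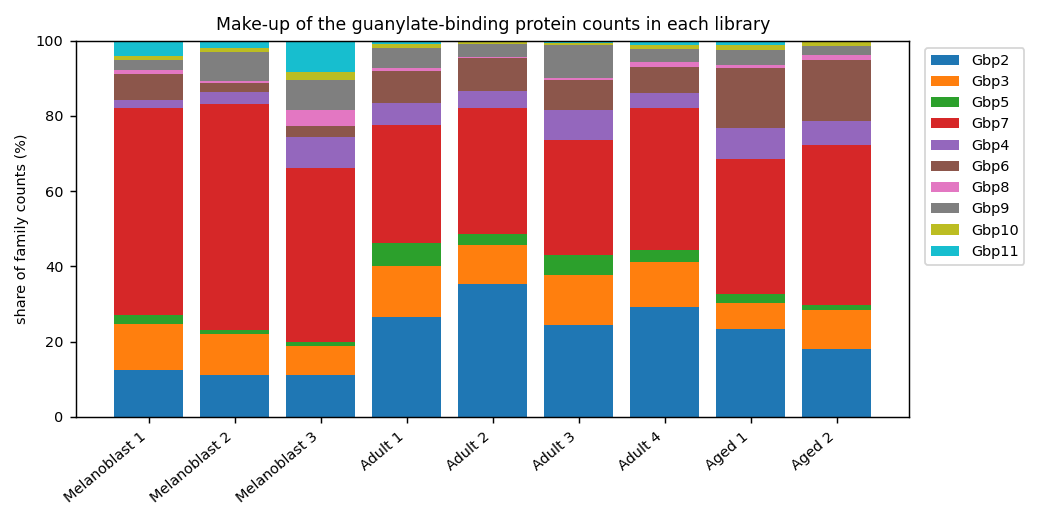
Share of the 10 members' summed counts (y axis, %) that each member took in each of the 9 libraries (x axis, by age). Gbp7 is the widest band in melanoblasts (46.4% to 60.1%), Gbp2 widens in adult McSC, and the Gbp6 band is widest in the 2 aged libraries (15.9% and 16.3%).

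The second comparison set aged McSC against melanoblasts. It shares its melanoblast libraries with the adult comparison, so the 2 are not independent, and the melanoblast values were among those known when the family was proposed. The p-values and calls of the members in this comparison make no allowance for that choice and describe the values only. The family's summed level was 171.6 ± 3.41 CPM in aged McSC (SD, n = 2) and 44.7 ± 15.3 CPM in melanoblasts (SD, n = 3). In edgeR's test 7 of 10 members rose in aged McSC and none fell, where 20.4% of all genes were called higher and 20.3% lower. Gbp6 had the highest log2 fold change of aged McSC over melanoblasts, 3.78 ± 0.420 (SE, adjusted p = 6.12e-07 in edgeR), at 27.6 CPM in aged McSC and 2.04 CPM in melanoblasts on average. Gbp4 followed at 2.91 ± 0.396 (adjusted p = 6.65e-06 in edgeR), Gbp2 at 2.78 ± 0.312 (4.95e-07) and Gbp5 at 2.26 ± 0.530 (0.00186). Gbp10 was at 1.92 ± 0.644 (adjusted p = 0.0211 in edgeR), Gbp3 at 1.61 ± 0.358 (0.00118) and Gbp7 at 1.45 ± 0.297 (0.000536). Gbp8 (1.49 ± 0.699, adjusted p = 0.0892 in edgeR), Gbp9 (1.07 ± 0.466, 0.0680) and Gbp11 (-0.43 ± 0.656, 0.602) did not pass. Every aged library was above every melanoblast library for 8 members, all but Gbp9 and Gbp11, as for 40.4% of all genes tested. The members' median log2 fold change was 1.76, and that of all genes was 0.70.

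Those calls held for 6 of the 7 members in every alternative that tested them, and Gbp10 lost its call when aged replicate 1 was left out (adjusted p = 0.167 in edgeR). Leaving out melanoblast replicate 1 put Gbp6 at 4.68 and Gbp5 at 3.06 on the log2 scale, both still called. Leaving out melanoblast replicate 3 put Gbp8 at 2.28 (adjusted p = 0.0130 in edgeR). Gbp9 gained a call under 7 settings, among them scaling factors from abundant genes (adjusted p = 0.00475 in edgeR). That scaling put the median log2 fold change of all genes at 1.78 in place of 0.70 and that of the members at 2.92 in place of 1.76, and it put Gbp11 at 0.66.

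The third comparison set adult McSC against melanoblasts. The family was proposed with results of this comparison known, so its values are a description with no test. The family's summed level was 247.5 ± 33.6 CPM in adult McSC (SD, n = 4) and 44.7 ± 15.3 CPM in melanoblasts (SD, n = 3). Of the 10 members, 9 were past the threshold, all higher in adult McSC, and Gbp11 was not, beside 15.1% of all genes called higher and 18.3% lower. For the same 9 members every adult library was above every melanoblast library, as for 19.5% of all genes tested. The log2 fold changes of adult McSC over melanoblasts, with SE, ran from 4.05 ± 0.495 for Gbp5 and 3.77 ± 0.299 for Gbp2 down to 1.73 ± 0.265 for Gbp7, 1.69 ± 0.572 for Gbp10 and 0.01 ± 0.538 for Gbp11. Between them stood Gbp6 at 3.31 ± 0.386, Gbp4 at 3.08 ± 0.365, Gbp3 at 2.65 ± 0.328, Gbp9 at 2.33 ± 0.418 and Gbp8 at 1.76 ± 0.617. As fitted folds, Gbp5 was 16.6-fold and Gbp2 13.7-fold higher in adult McSC. The members' median log2 fold change was 2.49, and that of all genes was 0.39, against 3.34 and 1.15 with scaling factors from abundant genes. Without melanoblast replicate 1 the log2 fold change of Gbp5 was 4.86 and that of Gbp6 4.21, and without melanoblast replicate 3 that of Gbp8 was 2.55.

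**Figure D3:**
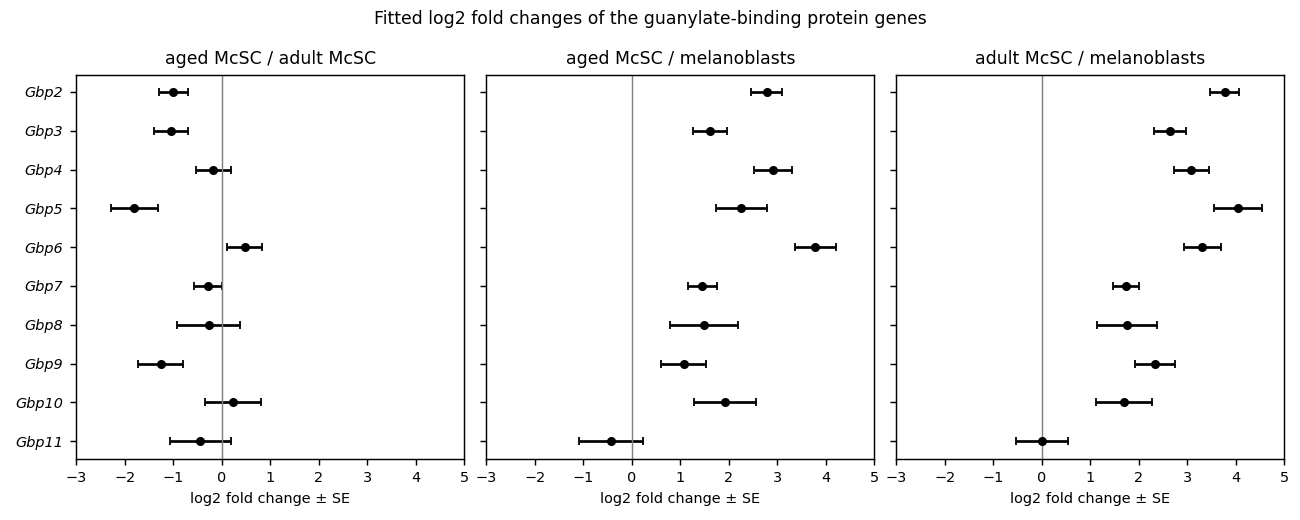
Fitted log2 fold change (x axis) with its standard error (bars) for each member (rows) in the 3 comparisons of edgeR. Aged over adult McSC spans -1.80 (Gbp5) to 0.47 (Gbp6), aged McSC over melanoblasts spans -0.43 (Gbp11) to 3.78 (Gbp6), and adult McSC over melanoblasts spans 0.01 (Gbp11) to 4.05 (Gbp5).

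Markers of other cell types moved along with these comparisons. All 14 keratinocyte and hair follicle markers were higher in aged McSC and in adult McSC than in melanoblasts in edgeR, and their summed level was 91.2 to 277.3 CPM in melanoblasts, 1100 to 2412 CPM in adult McSC and 949.5 to 1105 CPM in aged McSC. The 10 melanocyte markers summed to 14460 to 26230 CPM in melanoblasts, 4473 to 10910 CPM in adult McSC and 7476 to 8985 CPM in aged McSC. The 12 markers of macrophages and dendritic cells summed to 32.0 to 46.2 CPM in melanoblasts, 48.2 to 70.3 CPM in adult McSC and 71.0 to 88.5 CPM in aged McSC, and 6 of them rose in aged McSC and 4 in adult McSC against melanoblasts. The 10 markers of T and NK cells summed to 6.19 to 12.3 CPM in melanoblasts, 9.95 to 20.5 CPM in adult McSC and 17.6 to 25.5 CPM in aged McSC, and 4 rose in aged McSC and none in adult McSC against melanoblasts. With scaling factors from abundant genes these counts were 9 and 5 for the macrophage list and 8 and 4 for the T and NK cell list. Of all genes tested, 20.4% were called higher in aged McSC than in melanoblasts, and 15.1% in adult McSC. With that scaling 15344 of the 31961 genes were called higher in aged McSC.

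Between aged and adult McSC, none of the keratinocyte, macrophage, T and NK cell or endothelial markers passed the test, at an unadjusted p under 0.05 for 5, 3, 1 and 5 of them. The 9 Schwann cell markers summed to 329.4 to 389.2 CPM in aged McSC and 844.3 to 1341 CPM in adult McSC, and 6 fell (3 with scaling factors from abundant genes). The 9 fibroblast markers summed to 129.0 to 243.7 CPM in aged McSC and 485.8 to 953.0 CPM in adult McSC, and 3 fell (none with that scaling). The 11 endothelial markers summed to 258.5 CPM in adult replicate 3, the library with the most Gbp4 and Gbp9, against 74.0 to 125.1 CPM in the other adult libraries. They summed to 54.8 to 93.8 CPM in melanoblasts and 62.0 to 71.5 CPM in aged McSC. The keratinocyte and hair follicle sum was also highest in adult replicate 3, at 2412 CPM against 1100 to 1894 CPM in the other adult libraries. No marker of the 9 lists was at 0 in every library. Mast cell markers, which a KIT sort could retain, summed to 20.3 to 34.3 CPM in melanoblasts, 10.3 to 15.8 CPM in adult McSC and 12.6 to 14.2 CPM in aged McSC. The 7 markers of pericytes and smooth muscle summed to 140.5 to 265.2, 104.0 to 121.6 and 83.3 to 111.5 CPM in the same order of ages. Most of that sum was Cspg4, which averaged 172.6, 75.8 and 46.7 CPM in that order. In aged McSC against melanoblasts 3 of the 7 rose (Pdgfrb, Myh11 and Des) and 3 fell, Cspg4 among them. The part of these cell types in the members' values was not tested.

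**Figure D4:**
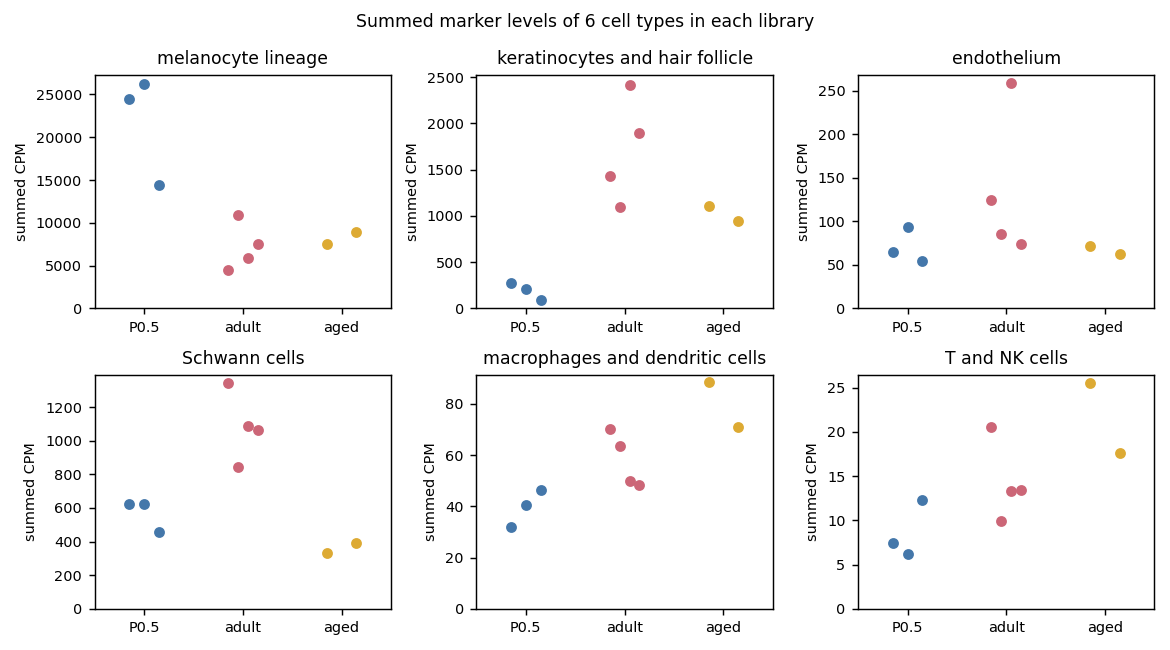
Summed CPM (y axes, linear, each from 0 with its own scale) of the markers of 6 cell types in each library (points) at the 3 ages (x axis). Keratinocyte markers are at 91.2 to 277.3 in melanoblasts and at 949.5 or more in all adult and aged libraries. The highest endothelial sum (258.5) and the highest keratinocyte sum (2412) are both in adult replicate 3.

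The other genes of the pathway were read from 7 lists. Against melanoblasts, 20.4% of all genes were called higher and 20.3% lower in aged McSC, and 15.1% and 18.3% in adult McSC. The counts of each list are to be read beside these shares. The immunity-related GTPases are smaller interferon-induced GTPases that act with the guanylate-binding proteins on parasite vacuoles. Of 8 measured, 7 rose and none fell in aged McSC against melanoblasts, and likewise 7 and none in adult McSC, with median log2 fold changes of 3.48 and 3.44. Tgtp1 averaged 8.54 ± 0.714 CPM in aged McSC (SD, n = 2) and 0.178 ± 0.0464 CPM in melanoblasts (SD, n = 3), and rose by 5.52 ± 0.491 in log2 units with its SE (adjusted p = 1.42e-08 in edgeR). For Ifi47 the log2 fold change of aged McSC over melanoblasts was 4.57 ± 0.463 and for Irgm1, which holds other family members off the cell's own membranes, it was 2.29 ± 0.279 (adjusted p at most 1.59e-06 in edgeR). Between aged and adult McSC none of the 8 passed, 3 had an unadjusted p under 0.05, and the median log2 fold change was -0.64.

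Among 20 genes of interferon signalling, 19 were tested, and Ifng, which encodes interferon gamma, was too low at 0.218 CPM in melanoblasts, 0.151 in adult McSC and 0.0202 in aged McSC on average. In aged McSC 6 rose and 5 fell against melanoblasts, and in adult McSC 8 rose and 4 fell. With scaling factors from abundant genes these counts were 13 and 2 in aged McSC and 14 and 2 in adult McSC. That scaling also moved all genes, with 15344 of the 31961 tested called higher and 1770 lower in aged McSC against melanoblasts. The numbers for adult McSC are given at the end. Nlrc5, a transactivator of class I antigen presentation genes, had 40.5 ± 4.17 CPM in aged McSC and 3.90 ± 1.47 CPM in melanoblasts, and rose by 3.37 ± 0.295 in log2 units with its SE (adjusted p = 1.15e-08 in edgeR). The receptor chains Ifnar1, at -2.13 ± 0.275 (adjusted p = 3.30e-06 in edgeR), and Ifngr2, at -2.04 ± 0.315 (2.68e-05), fell. Of the factors that carry the interferon signal to promoters, Irf1 rose to 70.3 ± 11.5 CPM in aged McSC, against 28.2 ± 4.12 CPM in melanoblasts (log2 fold change 1.32 ± 0.250, adjusted p = 0.000250 in edgeR). Irf1 was singled out after its values had been seen. Among the other Irf genes listed, Irf8 also rose in aged McSC over melanoblasts (2.37 ± 0.656, adjusted p = 0.00668 in edgeR). Irf9 (0.11 ± 0.263, adjusted p = 0.753 in edgeR) and Irf2 (-0.31 ± 0.256, 0.324) did not pass. Between aged and adult McSC none of the 19 passed, and 3 had an unadjusted p under 0.05.

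Of 12 inflammasome partners, 7 rose and 1 fell in aged McSC against melanoblasts, and 4 rose and 1 fell in adult McSC (8 and none in both with scaling factors from abundant genes). Casp4, the mouse gene of caspase-11, had 98.5 ± 8.69 CPM in aged McSC and 7.43 ± 1.95 CPM in melanoblasts, and rose by 3.73 ± 0.273 in log2 units with its SE (adjusted p = 9.70e-10 in edgeR). Casp1, the protease of canonical inflammasomes, was at 3.62 ± 0.499 (adjusted p = 7.83e-06 in edgeR), and Il18, a cytokine it cleaves, at 3.45 ± 0.639 (0.000196). The gene that fell was Casp8, at -1.36 ± 0.267 (adjusted p = 0.000352 in edgeR). Aim2 did not pass against melanoblasts, at -0.55 ± 0.422 in aged McSC (adjusted p = 0.289 in edgeR) and -0.78 ± 0.345 in adult McSC (0.0817). Between aged and adult McSC none passed and 3 had an unadjusted p under 0.05. Of these 3, Casp1 had 14.98 ± 0.174 CPM in aged McSC and 6.79 ± 1.10 CPM in adult McSC (log2 fold change 1.14 ± 0.424, adjusted p = 0.373 in edgeR). Pycard had 144.1 ± 51.8 CPM in aged McSC and 61.6 ± 17.7 CPM in adult McSC (1.23 ± 0.285, adjusted p = 0.0695 in edgeR). Casp4 went the other way, at -0.52 ± 0.250 (adjusted p = 0.483 in edgeR).

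Directions in the remaining lists turned on the scaling. Of 11 genes of ATG8 conjugation, which directs the GTPases to vacuoles in mouse cells, none rose and 7 fell in aged McSC against melanoblasts, and 1 rose and 5 fell in adult McSC. Map1lc3b (-1.41 ± 0.277), Gabarap (-1.40 ± 0.309) and Atg12 (-1.25 ± 0.308) were among the 7, as log2 fold changes with SE of aged McSC over melanoblasts (adjusted p at most 0.00267 in edgeR). With scaling factors from abundant genes 4 of the 11 rose and none fell in either group, and these 3 genes stood at -0.26, -0.23 and -0.10 and were not called. Of 5 prenylation enzymes, which add the lipid anchors, none rose and 2 fell in aged McSC and 3 in adult McSC against melanoblasts, and those in aged McSC were Fnta at -1.14 ± 0.260 and Icmt at -1.29 ± 0.320. Of 3 atlastins, relatives of the family that fuse endoplasmic reticulum membranes, 2 fell at both ages, and in aged McSC these were Atl1 (-1.67 ± 0.304) and Atl3 (-0.98 ± 0.291). With scaling factors from abundant genes, in aged McSC against melanoblasts, 1 prenylation enzyme and 1 atlastin rose and none fell, and Fnta, Icmt, Atl1 and Atl3 were not called (-0.01, -0.12, -0.56 and 0.18). In adult McSC that scaling gave 1 prenylation enzyme and 1 atlastin higher, and 1 atlastin, Atl1, lower. Mx1 and Mx2, other interferon-induced GTPases of the dynamin superfamily, did not pass in any comparison, with log2 fold changes of aged McSC over melanoblasts of 0.52 ± 0.356 and -0.44 ± 0.274 (1.57 and 0.66, both called, with that scaling), and Gvin1 was too low to test. Between aged and adult McSC none of these genes passed, at an unadjusted p under 0.05 for 5 of the ATG8 list and 1 prenylation enzyme.

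By Pearson correlation of log2 CPM with the mean of the 10 members over the 9 libraries, the 5 genes most like the family among 9220 protein-coding genes were Hspa1a (r = 0.993), Hspb1 (0.993), Clca3a2 (0.992), Bbox1 (0.990) and Palmd (0.989). Hspa1a had 3.68 CPM in melanoblasts, 181.1 in adult McSC and 89.4 in aged McSC on average. These values follow the differences between ages, and the points share library and depth. When each library was taken as its deviation from its group's mean, the 5 most alike were Sprr1a (0.959), Pim1 (0.956), Pde4b (0.954), Kif2c (0.945) and Cdk6 (0.935). Among the members themselves, such deviations were most alike for Gbp3 and Gbp7 (r = 0.91, 9 libraries), for Gbp5 and Gbp6 (0.83), for Gbp2 and Gbp7 (0.83) and for Gbp4 and Gbp9 (0.81). They were most opposed for Gbp2 and Gbp8 (-0.81) and for Gbp7 and Gbp8 (-0.73), where Gbp8 rests on 4 to 63 counts a library. With group means removed, the 9 libraries give fewer than 9 independent deviations, and the 2 aged ones are equal and opposite. The named genes are the highest of 9220, and how high r runs by chance over so few points was not tested. No p is given for any of these.

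Among other genes with a Gbp name, Gbp2b, between Gbp3 and Gbp2 on chromosome 3, had 0.0501 to 0.497 CPM in melanoblasts, 1.79 to 3.92 CPM in adult McSC and 1.85 to 2.42 CPM in aged McSC. It held the GAAA pair at -137 to -128 from its RefSeq start. The pseudogene Gbp2-ps was at 1.012 CPM or less in every library.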

How the data were processed

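Raw counts per Ensembl gene were deposited by the authors, one file per library, and values are whole-number read counts. Build mm10 was used, per the submitters' processing notes, which list STAR 2.5.2, DESeq2 1.22.2, Trimmomatic 0.36, SAMtools 1.9 and FastQC 0.11.8. Not given in the sources used here are the counter, its annotation and strand setting, and how it treated reads with several matches. Per the labels' protocols, 20 ng of RNA was amplified with the Ovation RNA-Seq System V2, 1000 ng of cDNA entered library construction with 10 PCR cycles, and read pairs were 126 bases long. Amplification can shift the balance of transcripts, and there are no molecule counts.

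Symbols and exon lengths came from GENCODE M21 (49326 of 49671 IDs matched). One group-means model over all 9 libraries was fitted with edgeR 4.0.16 (filterByExpr, TMM, robust quasi-likelihood test) under R 4.3.3, and 31961 genes were tested, with Benjamini-Hochberg adjustment over all of them and a threshold of 0.05. Each SE is the size of the log2 fold change over the square root of the F statistic. "Rose", "fell" and "passed" mean past that threshold. Alternatives used RLE and abundant-gene scaling, other filters, DESeq2 1.42.0, limma 3.58.1, the replicate block, library totals without mitochondrial genes and each library left out. The pipeline was tested on simulated data. List counts were also taken with the other scalings after the data had been seen. The members, lists and tests were chosen with earlier results of these data known. Named from each pathway list were up to 3 genes with the smallest p against adult McSC or melanoblasts, or the 2 most abundant where none passed, and the pattern genes needed 10 CPM in their highest group. The values of 1 gene of the interferon signalling list are not reported here.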

Additional observations from a re-analysis of the deposited data

Results flagged for a closer look

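Gbp6 in adult McSC had 1 library far from the others: adult replicate 4 was at 13.8 CPM, whereas the other 3 adult libraries were at 21.6 to 22.55 CPM. The gap was tested for 10 genes in the adult group, and chance alone marks about 1 in 20 such groups. Replicate 4 was also lowest among the adult libraries for Gbp2, Gbp3, Gbp4, Gbp5, Gbp7 and Gbp9, and highest for Gbp8 and Gbp11. Its marker sums were the lowest of the adult libraries for endothelium (74.0 CPM), macrophages and dendritic cells (48.2), fibroblasts (485.8) and mast cells (10.3). That did not hold for the other marker lists, and the cause was not tested.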

How the results depend on the processing

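Of 501 member fold changes under alternatives, 455 counted as the same. In the comparisons of aged McSC that meant the same direction and side of the threshold. In adult McSC against melanoblasts it meant a shift smaller than the SD of log2 CPM within groups, and calls were not compared. Between aged and adult McSC, 97 genes changed (17 higher, 80 lower), against 57 with abundant-gene scaling (32 higher, 25 lower), 343 without a filter, 339 in DESeq2, 1520 in limma voom (850 higher, 670 lower) and 172 with the replicate block, and 13 to 303 when 1 library was left out (13 without aged replicate 2, 303 without melanoblast replicate 3, 46 and 49 without adult replicates 1 and 3). None of the members was called, against 2 without a filter, 1 in DESeq2 (NA for Gbp8, Gbp10 and Gbp11), 3 in limma voom (Gbp2, Gbp3 and Gbp5), 2 with the block (Gbp2 at 0.0333 and Gbp5 at 0.0203) and 0 to 2 with 1 library left out. Replicate numbers did not pair the libraries: deviations of same-numbered ones correlated at -0.08 to 0.2. The block also ended the call of Gbp10 in aged McSC against melanoblasts (adjusted p = 0.0569 in edgeR).

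Aged McSC against melanoblasts gave 13006 changed genes, against 7611 with the stricter filter (5 CPM in 2 libraries, which left out Gbp8, Gbp10 and Gbp11) and 7408 to 16292 with 1 library left out (7408 and 8438 without aged replicates 1 and 2). Adult McSC against melanoblasts gave 10676, against 6877 with the stricter filter. Abundant-gene scaling moved the median of all genes to 0.42, 1.78 and 1.15 for aged over adult, aged over melanoblast and adult over melanoblast, in place of 0.08, 0.70 and 0.39, and the last 2 splits to 15344 higher and 1770 lower and to 10420 higher and 1985 lower, in place of 6514 and 6492 and of 4836 and 5840.

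Log2 fold changes of aged over adult McSC reversed for Gbp4 (0.16 with abundant-gene scaling, 0.02 with the stricter filter, -0.42 to 0.10 with 1 library left out), Gbp7 (0.07 with that scaling), Gbp8 (0.03 with that scaling, 0.25 with the block, -0.64 to 0.02 with 1 library left out), Gbp10 (-0.16 to 0.54 with 1 left out) and Gbp11 (-1.30 to 0.10 with 1 left out). Gbp11 reversed against melanoblasts (0.66 with that scaling, -1.20 to 0.20 with 1 left out). The positive values came without adult replicate 3 or aged replicate 2 for Gbp4, without aged replicate 1 for Gbp8 and without aged replicate 2 for Gbp11, and the negative one of Gbp10 without aged replicate 1. None of these values was called, and the cause was not tested. Low counts limit Gbp8, Gbp10 and Gbp11.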
